A study of Mus musculus with 6 samples.

Results

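The transcriptional output of p53 outside the Bcl2 family was followed through a list of 36 mouse genes in c-Kit+Sca-1+Lin- (KSL) bone marrow cells, the surface phenotype that holds blood stem cells and early progenitors. A gene was represented by its brightest probe set, by mean signal over the 6 arrays, among those that the platform annotation assigned to a single symbol. By this rule 34 of the 36 genes were found, out of 18193 genes represented on the array, and Trp53 and Gdf15 are not analysed here. The cells came from C57BL/6J mice. Both groups had been grown for 7 days at 37 °C in serum-free medium on a layer of human umbilical vein endothelial cells, called HUVECs, with a mix of 5 mouse cytokine types, and KSL cells were then sorted a further time for RNA. The groups differed in what had been added, PBS as the vehicle control or mD1R, with 3 arrays of biological replicates each. From the study, mD1R is known as a recombinant protein that joins the receptor-binding region of the mouse Notch ligand Delta-like 1 to a motif that anchors it to endothelial cells. The question is which transcripts differ when the ligand has been present, among cells that still carry the KSL phenotype. The experiment was done 3 times, but the labels do not say how many mice went into a culture or whether they differed between repeats, so the spread between arrays may be partly technical.

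The p53 protein is a transcription factor that is held at low levels by the ubiquitin ligase Mdm2 and accumulates when DNA is damaged or when replication, ribosome assembly or nutrient supply is disturbed. It then activates genes that stop the cell cycle, repair DNA, lower oxidative stress or start cell death, and Mdm2 itself is among its targets, which closes a feedback loop. Most of these genes also answer to other transcription factors, so the level of a single target is no direct measure of p53. In blood stem cells p53 is known for supporting quiescence and for the loss of cells after irradiation.

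The measurements are log2 signals from MAS5, an algorithm that scales each array by itself. A difference of 1 on this scale is a 2-fold change. Array medians lay between 6.08 and 6.43. Kit, which encodes the stem cell factor receptor of the gate, differed by 1.35 ± 0.49 (SE) and Ptprc, the pan-leukocyte antigen gene, by -0.34 ± 0.21, and neither passed the test, while Ly6a, the Sca-1 gene, is not analysed here. The arrays formed 2 sets by the log2 signal of the BioB spike-in minus that of the other spike-in controls. In set 1 this value was -3.09 to -2.99, and the set holds replicate 1 of PBS with replicates 1 and 2 of mD1R. In set 2 it was -5.56 to -5.50, and the set holds the remaining arrays. The array of mD1R replicate 3 also stood apart in the neutrophil markers, as described below.

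With mD1R, 9 of the 33 p53 targets that passed a filter on low signals rose and 1 fell. The rising genes were Phlda3, Zmat3, Plk2, Polk, Ccng1, Dcxr, Aen, Pml and Ei24, with log2 changes from 0.63 to 1.89, or 1.55-fold to 3.70-fold. The falling gene was Xpc, which encodes the damage sensor of global nucleotide excision repair, by 1.83 on the log2 scale. The calls used limma with Benjamini-Hochberg adjustment over 27022 probe sets and a threshold of 0.05. Over all 12320 genes tested the same way, 8.49% were higher and 7.09% lower, against 27.3% and 3.03% of the p53 targets. Over the probe sets the shares were 6.13% higher and 6.5% lower, 12.6% in all. The median log2 change of the 33 targets was 0.47, and that of all genes tested was 0.09. The list was chosen with earlier results of these arrays known, so these shares are given as a description. The remaining 23 genes did not pass, 12 with a positive and 11 with a negative change. Eda2r, among the 12, passed the filter only through the mD1R arrays. In 13 targets the mD1R arrays all lay above the PBS arrays and in 6 they all lay below, or 39.4% and 18.2%, against 22.1% and 18.1% of all genes tested.

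**Figure D1:**
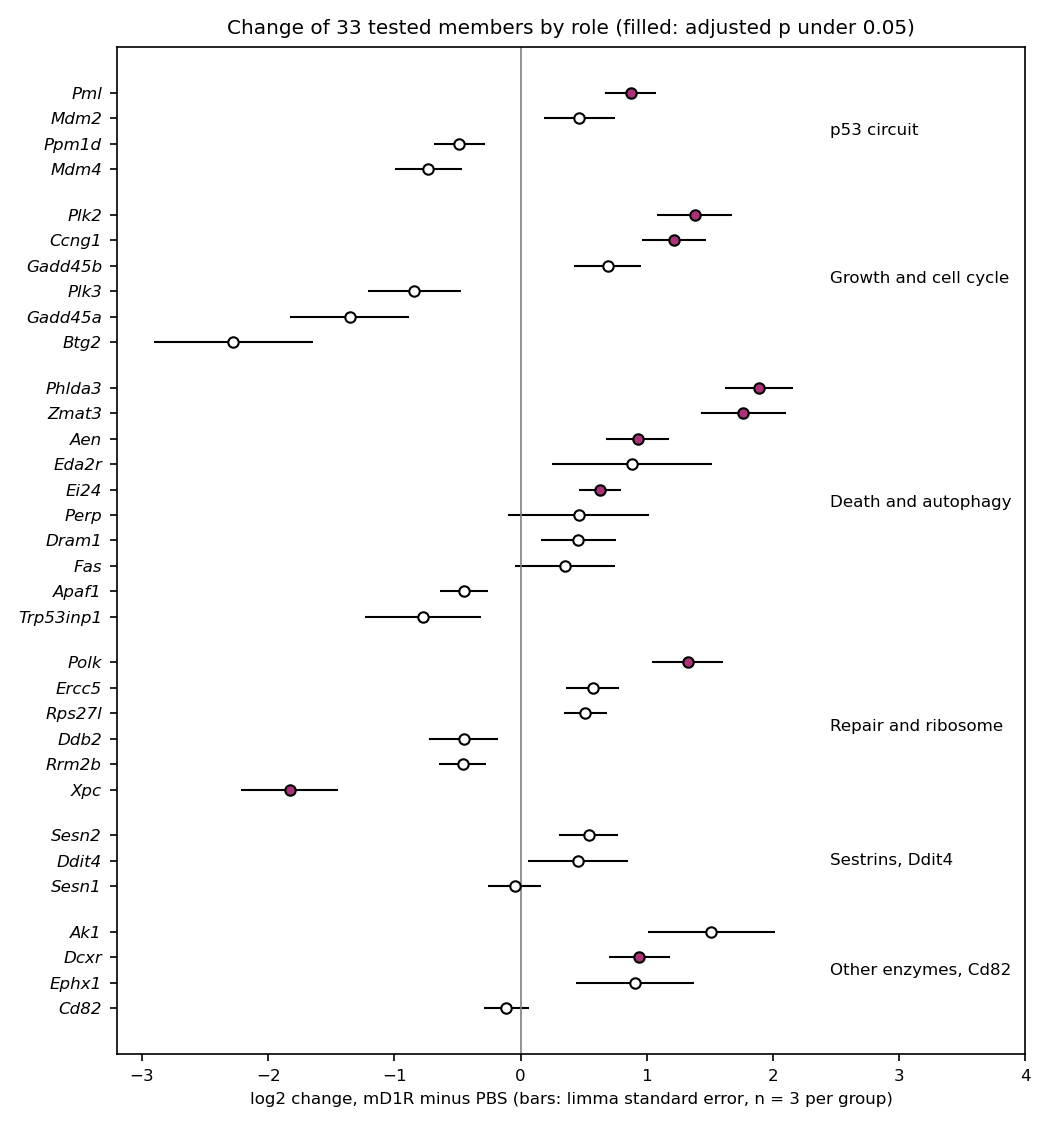
Log2 change with mD1R against PBS (horizontal axis) for the 33 p53 targets tested, grouped by role, with limma's standard error as bars (n = 3 arrays per group). Filled points passed an adjusted p of 0.05, and the 9 filled points right of 0 lie between 0.63 (Ei24) and 1.89 (Phlda3), with Xpc alone filled on the left at -1.83.

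Promoters of the targets were searched for the p53 consensus element, as a description of their sequence. That element is a pair of 10-base stretches with 0 to 13 bases between them, and it reads the same on both strands. Up to 2 mismatches were allowed over both stretches, with none at the fixed C and G of each. RefSeq windows (GRCm38.p6) from 250 bases before to 50 bases after a start site were found for 27 of the 34 genes. The genes Xpc, Perp, Tnfrsf10b, Zmat3, Ddb2, Trp53inp1 and Rrm2b had none. A match was found in 5 of the 27 genes (18.5%), against 4.71% of all 27018 genes with a window. The list is made of known p53 targets, so a larger share was built into its choice and says nothing about these arrays. The targets also had more windows per gene, 38 for 27 genes against 32841 for 27018, which raises a share counted by gene. Of all windows, 4.09% held a match. The 5 genes were Ccng1, Pml, Rps27l, Gadd45a and Sesn1. Of these, Ccng1 and Pml rose, and the other 3 did not pass. Of the 8 rising genes that had a window, 2 held a match. A match is a run of letters and not evidence of binding, and p53 elements are often found in introns outside these windows.

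The 250 bases before the start site are shown for both rising genes with a match, with the matched stretches in capitals. The Ccng1 bases lie at chr11:40755287-40755536 on the minus strand, and those of Pml at chr9:58249787-58250036, also on the minus strand. Each match had 1 mismatch, and that of Ccng1 begins at position -195 and that of Pml at position -161 from the start. The Ccng1 stretches abut, whereas those of Pml are 7 bases apart.
Ccng1: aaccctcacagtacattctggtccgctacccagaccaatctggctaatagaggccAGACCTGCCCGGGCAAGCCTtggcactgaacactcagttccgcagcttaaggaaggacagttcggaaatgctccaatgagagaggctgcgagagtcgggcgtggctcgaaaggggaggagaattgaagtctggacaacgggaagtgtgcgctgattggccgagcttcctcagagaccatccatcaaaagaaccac
Pml: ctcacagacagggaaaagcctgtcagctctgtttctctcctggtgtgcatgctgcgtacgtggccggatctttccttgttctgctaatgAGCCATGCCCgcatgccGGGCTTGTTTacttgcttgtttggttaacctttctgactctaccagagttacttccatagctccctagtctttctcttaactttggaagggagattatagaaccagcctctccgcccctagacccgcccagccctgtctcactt

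For the 3 genes with a match that did not pass, the matched element alone is shown, so that it can be set beside those above. It lies at chr9:66946296-66946315 (plus strand, 1 mismatch) for Rps27l, at chr6:67037438-67037463 (minus strand, 2 mismatches) for Gadd45a and at chr10:41887253-41887275 (plus strand, 2 mismatches) for Sesn1.
Rps27l: GGGCTTGTTGAGACTTGTCC
Gadd45a: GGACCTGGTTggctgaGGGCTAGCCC
Sesn1: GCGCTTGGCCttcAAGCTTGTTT
Rps27l and Ccng1 were the targets whose matched stretches abut, and their changes of 0.51 and 1.21 had the same sign. Gadd45a, with a match as well, had a change of -1.35. Among these genes a match in the window was seen with values of either sign.

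Among the genes that set the level and activity of p53 itself, 1 of 4 rose. Pml encodes the scaffold of the nuclear bodies in which p53 is modified. Its log2 signal was 9.21, 9.15 and 8.91 in PBS replicates 1, 2 and 3, and 9.73, 9.94 and 10.21 in mD1R replicates 1, 2 and 3. The groups did not overlap, and Pml rose by 0.87 ± 0.20 (SE; adjusted p = 0.0318). Mdm2, the ubiquitin ligase and feedback target, gave 10.66, 11.39 and 11.15 with PBS and 11.85, 11.03 and 11.72 with mD1R. Replicate 2 of mD1R lay among the PBS arrays, and the difference of 0.47 ± 0.28 did not pass (adjusted p = 0.310). The Mdm2 relative Mdm4, which inhibits p53 by binding its activation domain, gave 10.82, 10.99 and 10.88 with PBS and 9.66, 10.13 and 10.70 with mD1R. All mD1R arrays were below all PBS arrays, with replicate 3 closest to them, and the difference of -0.73 ± 0.27 did not pass (adjusted p = 0.110). Ppm1d, the phosphatase that shuts off damage signalling, differed by -0.48 ± 0.20 (adjusted p = 0.158), again without overlap. Among these inhibitors of the pathway, Mdm4 and Ppm1d thus had negative values and Mdm2 a positive one, and none passed by its brightest probe set. Other Mdm4 probe sets gave -0.27, -1.18 and 0.38, each with overlapping groups.

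The genes acting on growth and the cell cycle split by direction, with 2 of 6 rising and 0 falling past the adjusted threshold in limma (3 positive and 2 negative at an unadjusted p of 0.05). Ccng1, which encodes cyclin G1, a regulator of Mdm2 phosphorylation, is among the targets of p53 found in most tissues. Its signal was 11.07, 11.57 and 11.36 with PBS and 13.02, 12.17 and 12.45 with mD1R. Ccng1 thus rose in every mD1R array, by 1.21 ± 0.25 or 2.32-fold (adjusted p = 0.0234). Plk2, a kinase of centriole duplication and stress checkpoints, gave 10.14, 10.33 and 9.96 with PBS and 12.20, 11.28 and 11.08 with mD1R. It rose by 1.38 ± 0.30, or 2.60-fold (adjusted p = 0.0254), with replicate 1 the highest of the mD1R arrays. Its relative Plk3 had an opposite value of -0.84 ± 0.37, which did not pass (adjusted p = 0.171), and its groups overlapped.

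Btg2, an antiproliferative gene that is also an immediate early gene, had the most negative value of the list. Its signal was 13.25, 13.54 and 13.74 with PBS and 9.58, 11.68 and 12.46 with mD1R. The groups did not overlap, but the mD1R arrays had an SD of 1.49, against 0.24 with PBS, and the difference of -2.27 ± 0.63 missed the threshold (adjusted p = 0.0532). Another Btg2 probe set gave -2.30 ± 0.56 and passed (adjusted p = 0.0356). Gadd45a, a stress gene that binds PCNA and activates the p38 pathway, gave 12.21, 12.83 and 12.93 with PBS and 10.41, 11.08 and 12.43 with mD1R. Its replicate 3 of mD1R lay above the lowest PBS array, and the difference of -1.35 ± 0.47 did not pass (adjusted p = 0.0993). The related Gadd45b had a value of the other sign, 0.69 ± 0.27, which did not pass either (adjusted p = 0.128).

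The genes of cell death and autophagy held the largest rises, with 4 of 10 tested genes rising and 0 falling in limma (4 positive and 1 negative at an unadjusted p of 0.05). Phlda3 encodes a small pleckstrin homology protein that competes with Akt for membrane lipids and so restrains survival signalling. Its signal was 7.56, 8.03 and 7.89 with PBS and 10.20, 9.52 and 9.42 with mD1R. Every mD1R array exceeded every PBS array, and Phlda3 rose 3.70-fold (1.89 ± 0.27, adjusted p = 0.0113). Zmat3, a zinc finger RNA-binding protein gene that acts in p53-dependent growth suppression, gave 6.50, 7.63 and 7.23 with PBS and 9.17, 8.52 and 8.97 with mD1R. It rose 3.40-fold (1.76 ± 0.34, adjusted p = 0.0188) without overlap. Aen, a nuclease gene of apoptotic DNA breakdown, gave 9.06, 8.99 and 8.65 with PBS and 10.17, 9.42 and 9.89 with mD1R. Ei24, which encodes a membrane protein of the endoplasmic reticulum needed for autophagy, gave 10.48, 10.53 and 10.40 with PBS and 11.26, 11.02 and 11.02 with mD1R. Both rose without overlap, Aen by 0.93 ± 0.25 (adjusted p = 0.0463) and Ei24 by 0.63 ± 0.16 (adjusted p = 0.0447), and both lay close to the threshold.

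The cell surface and apoptosome genes of this group did not pass. The death receptor gene Fas gave 9.17, 9.97 and 9.92 with PBS and 9.21, 10.21 and 10.69 with mD1R. Replicate 1 was the lowest array in each group, and the difference of 0.35 ± 0.39 was smaller than the spread within either group (adjusted p = 0.593). Perp, a desmosomal membrane protein gene, differed by 0.46 ± 0.56, with a signal of 8.87 in mD1R replicate 3 and of 7.17 and 7.35 in the other mD1R arrays. Eda2r, a receptor of the tumour necrosis factor receptor family, differed by 0.88 ± 0.63 at a low signal, with overlapping groups. Its mean of 5.16 with PBS was below the filter, and it passed the filter only through the mD1R arrays, at 6.05. Tnfrsf10b, the mouse TRAIL receptor gene, was the member below the filter, with signals from 1.77 to 5.76 and overlapping groups. The lysosomal autophagy gene Dram1 differed by 0.46 ± 0.30, the apoptosome scaffold gene Apaf1 by -0.45 ± 0.19 and the stress gene Trp53inp1 by -0.77 ± 0.46, with adjusted p between 0.164 and 0.349.

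DNA repair genes went in both directions, with 1 of 6 rising and 1 falling. Polk encodes DNA polymerase kappa, which copies past damaged bases. Its signal was 8.27, 8.27 and 8.07 with PBS and 10.002, 9.59 and 8.99 with mD1R, and it rose by 1.32 ± 0.28, or 2.50-fold (adjusted p = 0.0238). Xpc gave 11.08, 10.83 and 11.001 with PBS and 8.60, 8.70 and 10.12 with mD1R. All mD1R arrays were below the PBS arrays, but replicate 3 lay well above the other mD1R arrays, and Xpc fell 3.55-fold (-1.83 ± 0.38, adjusted p = 0.0238). The partner in damage recognition, Ddb2, differed by -0.45 ± 0.27 (adjusted p = 0.310), and the endonuclease gene Ercc5, which acts later in the same repair pathway, by 0.57 ± 0.21 (adjusted p = 0.111). The ribonucleotide reductase subunit gene Rrm2b, which supplies nucleotides for repair outside S phase, differed by -0.46 ± 0.18 (adjusted p = 0.143). For each of these 3 genes the groups did not overlap, with changes smaller than those of Polk and Xpc. The ribosomal protein gene Rps27l differed by 0.51 ± 0.17 (adjusted p = 0.0849), also without overlap. Its brightest probe set belongs to a class that Affymetrix marks as open to cross-hybridisation, and the gene closely resembles Rps27, so its signal is uncertain.

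Of the metabolic stress genes, 0 of 3 passed in limma (1 positive at an unadjusted p of 0.05). The sestrin genes encode inhibitors of mTORC1 signalling. Sesn1 gave 10.03, 9.64 and 9.58 with PBS and 9.56, 9.95 and 9.60 with mD1R, a difference of -0.04 ± 0.21 with overlapping groups. Other Sesn1 probe sets gave 0.48, 0.45 and -0.43. None of them passed, and only the one at 0.45 had groups without overlap. Sesn2 gave 8.50, 8.56 and 8.93 with PBS and 9.15, 8.95 and 9.50 with mD1R. Its groups were only just separate, and the difference of 0.54 ± 0.23 did not pass (adjusted p = 0.164). Ddit4, another inhibitor of mTORC1 that also responds to hypoxia and glucocorticoids, differed by 0.45 ± 0.40 (adjusted p = 0.488).

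Among the other enzymes and the tetraspanin gene Cd82, 1 of 4 rose. Dcxr, a carbonyl reductase gene, gave 9.16, 9.37 and 9.40 with PBS and 9.92, 10.72 and 10.11 with mD1R, and rose by 0.94 ± 0.24 (adjusted p = 0.0426). The adenylate kinase gene Ak1 gave 6.48, 8.12 and 7.73 with PBS and 8.18, 9.03 and 9.65 with mD1R. Its groups were only just separate, and its change of 1.51 ± 0.50 was larger than that of Dcxr but less precise (adjusted p = 0.0870). The epoxide hydrolase gene Ephx1 differed by 0.91 ± 0.47 and Cd82 by -0.11 ± 0.18, with overlapping groups (adjusted p = 0.235 and 0.712).

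**Figure D2:**
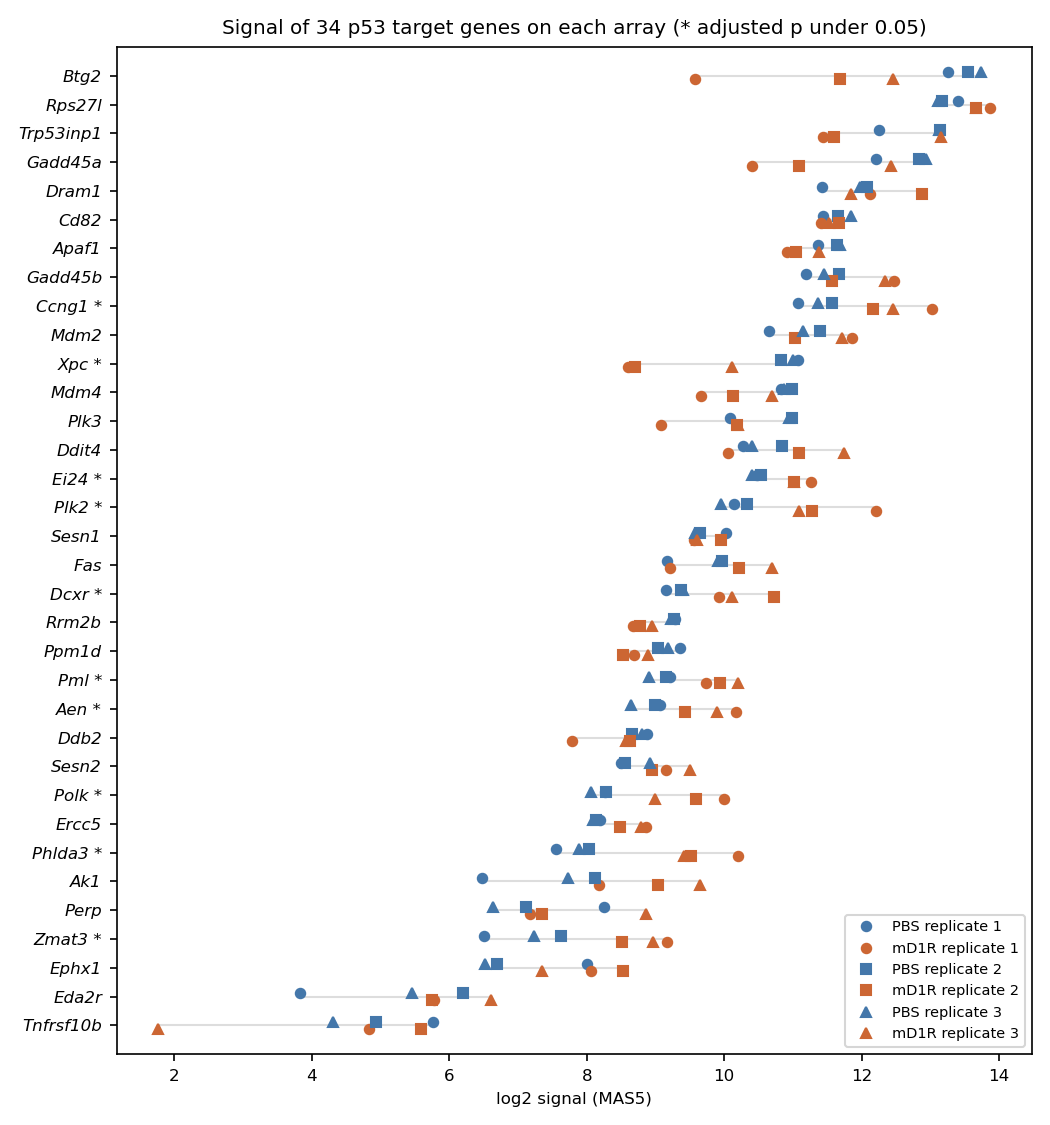
Log2 MAS5 signal (horizontal axis) of the 34 represented p53 targets on each of the 6 arrays, with PBS in blue, mD1R in orange and the replicate number by marker shape. The 3 mD1R arrays of Phlda3 lie between 9.42 and 10.20, all above the PBS arrays at 7.56 to 8.03, whereas those of Btg2 spread from 9.58 to 12.46; positions of different genes are not comparable, because probes bind with different strength.

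Other probe sets of the same genes gave a check of the measurements. There were 28 of them past the filter, for 16 genes, and 22 had the same sign as the brightest probe set. For the genes that passed, all 7 such probe sets were positive, as the brightest were, and 1 of them passed, that of Ccng1 at 1.18 ± 0.27 (adjusted p = 0.0292). A further Ccng1 probe set gave 0.88, those of Aen gave 0.48 and 0.87, those of Pml 0.59 and 0.47, and that of Polk 0.54. For Ccng1, Aen, Pml and Polk alike, the brightest probe set had the largest change of those past the filter. Single probe sets stood behind Phlda3, Zmat3, Ei24, Dcxr and Xpc, and the other Plk2 probe set lay below the filter. Other probe sets passed for 3 genes whose brightest one did not. They were those of Btg2 above, of Ppm1d (-0.77 ± 0.21, adjusted p = 0.0492) and of Rps27l (0.61 ± 0.16, adjusted p = 0.0426). That Rps27l probe set does not carry the mark for cross-hybridisation that the brightest one carries. The 6 probe sets of opposite sign belonged to Sesn1, Sesn2, Mdm4, Gadd45b and Cd82, whose own brightest probe sets did not pass.

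**Figure D3:**
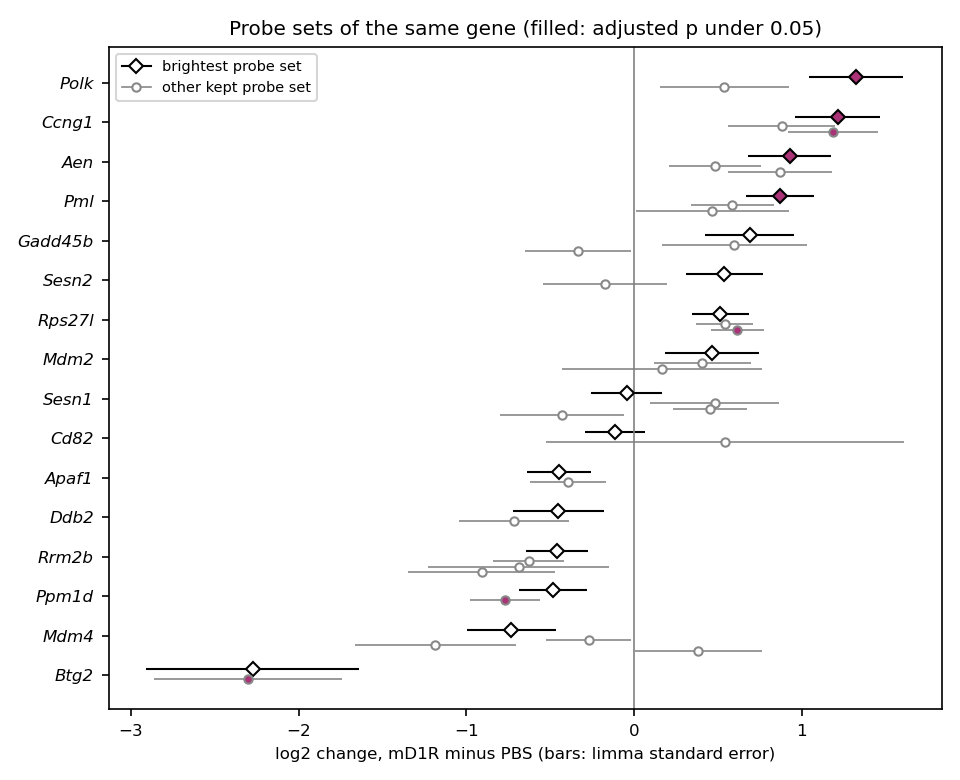
Log2 change with mD1R against PBS (horizontal axis, limma's standard error as bars) for the 16 p53 targets with more than 1 probe set past the filter, with the brightest probe set as a diamond and the others as circles. Filled symbols passed an adjusted p of 0.05; the probe sets of Ccng1, Aen, Pml and Polk all lie right of 0, and those of Sesn1 and Mdm4 lie on both sides.

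The mD1R arrays varied more than the PBS arrays, with the larger SD in 26 of 33 targets and a median SD of 0.47 against 0.24. Of the 12 targets with a negative change, mD1R replicate 3 was the highest mD1R array in 9. Of the 9 rising genes, it was the lowest mD1R array in 3. Within the spike-in sets, the negative targets had a median change of -0.70 in set 1, which compares mD1R replicates 1 and 2 with PBS replicate 1, and of -0.25 in set 2, which compares mD1R replicate 3 with PBS replicates 2 and 3. Each of these values rests on a single array of 1 group. Xpc changed by -2.43 in set 1 and -0.80 in set 2, and Btg2 by -2.62 and -1.19. The rising genes changed by 0.63 to 2.34 in set 1 and by 0.55 to 1.54 in set 2. Their groups do not overlap, so a positive sign in both sets was fixed by the choice of these genes, and only the sizes are informative.

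**Figure D4:**
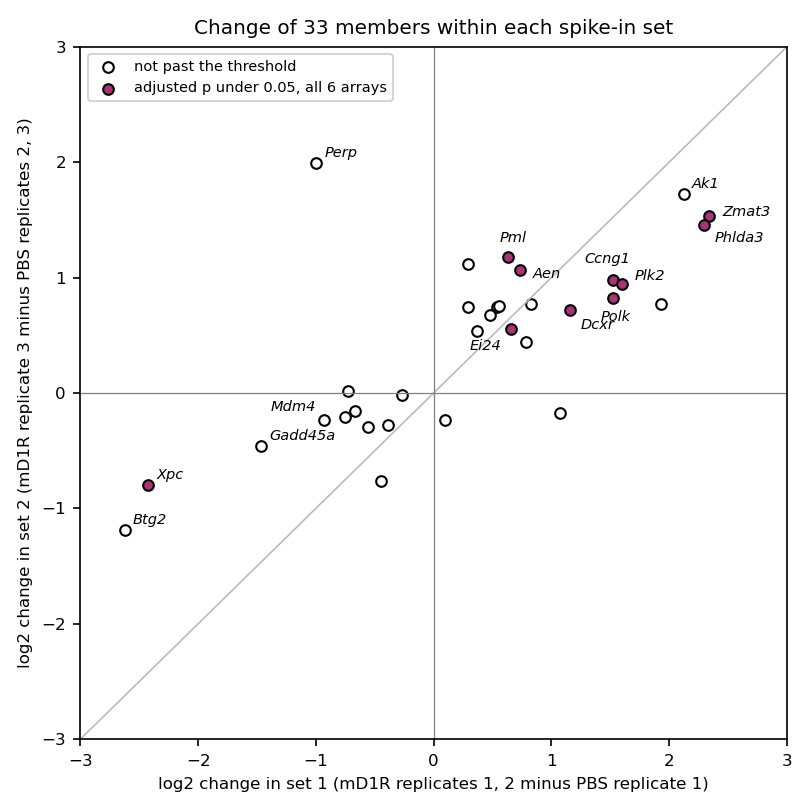
Log2 change of the 33 p53 targets within spike-in set 1 (horizontal axis, mD1R replicates 1 and 2 minus PBS replicate 1) and set 2 (vertical axis, mD1R replicate 3 minus PBS replicates 2 and 3), with the diagonal marking equal change. The 9 rising genes (filled, upper right) lie between 0.63 and 2.34 in set 1 and between 0.55 and 1.54 in set 2, and Xpc and Btg2 (lower left) changed more in set 1, at -2.43 and -2.62, than in set 2, at -0.80 and -1.19.

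Markers of other cell types moved with the groups. Among mast cell and basophil markers 10 of 12 rose and 0 fell (11 positive and 1 negative at an unadjusted p of 0.05), and the summed linear signal of the 13 represented genes was 14200 to 22850 with PBS and 66405 to 97634 with mD1R. Of these 10, Mcpt4 and Tpsg1, named after their values had been seen, had PBS means of 3.39 and 4.09, below the filter, and passed it only through the mD1R arrays. Monocyte and macrophage markers rose in 6 of 9 (0 fell; 7 positive and 0 negative unadjusted), with summed signals of 60575 to 77799 against 127343 to 182805. Megakaryocyte markers rose in 2 of 6 (0 fell, with 5 positive and 0 negative unadjusted), with sums of 8162 to 20371 against 35832 to 55604. Of 6 endothelial markers 3 passed the filter, and 1 of these, Pecam1, rose (1.41 ± 0.31). The sums over all 6 were 862 to 909 against 1123 to 2228. Below the filter, Cdh5 (-2.65) and Emcn (-1.41) were lower with mD1R without overlap, and Tek (0.12) overlapped. These below the filter were named after their values had been seen. The endothelial list thus went in both directions. Lymphoid markers rose in 1 and fell in 4 of 9, with overlapping sums of 13555 to 17085 against 10971 to 26353. Erythroid markers fell in 2 of 4, with sums of 1054 to 5127 against 389 to 826, and 1 of the 2, Slc4a1, likewise named after its values had been seen, passed the filter only through the PBS arrays. All 14 mitosis genes fell, with sums of 61221 to 75331 against 13717 to 26805. Neutrophil markers fell in 2 of 12 and rose in 0 (6 negative and 0 positive unadjusted). The summed neutrophil signal was 282453 to 351872 with PBS and 35203, 131938 and 338443 in mD1R replicates 1, 2 and 3. Replicate 3 of mD1R thus lay within the PBS range. That array was also the mD1R array nearest to PBS for Mdm4, Xpc, Btg2 and Gadd45a. Among the 9 rising targets it was nearest to PBS in only 3. In these markers, 1 gene, a lymphoid one, was listed at 0 on any array. The part of these cell types in the changes of the p53 targets was not tested, and in RNA from a mixed population fewer cells of a type and less RNA per cell cannot be told apart.

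Many of the calls were lost when an array was left out, and the same held over all genes tested. With all arrays 1046 genes were higher and 873 lower. Without PBS replicate 3 the counts were 0 and 0, and without PBS replicate 2 they were 222 and 122. Without mD1R replicate 3 they were larger, at 1560 and 1431. Of the 10 calls, 0 remained in limma without PBS replicate 3, where 11 targets were higher and 2 lower at an unadjusted p of 0.05. Without PBS replicate 1 or 2 the calls of Phlda3 and Zmat3 remained, without mD1R replicate 2 those of Phlda3 and Ccng1, without mD1R replicate 1 all but Ei24, Aen and Xpc, with Btg2 passing as well (-1.44, adjusted p = 0.0288), and without mD1R replicate 3 all but Aen. Phlda3 was lost only without PBS replicate 3 (1.92, adjusted p = 0.0668), and its change lay between 1.64 and 2.03 in the 6 settings. Zmat3 lay between 1.45 and 2.02, Plk2 between 1.04 and 1.60, Polk between 1.09 and 1.59, Ccng1 between 0.98 and 1.40 and Xpc between -2.32 and -1.56. Without mD1R replicate 3 the targets that fell were 5, since Mdm4 (-0.9998, adjusted p = 0.0139), Btg2 (-2.88, adjusted p = 0.00993), Gadd45a (-1.91, adjusted p = 0.00467) and Trp53inp1 (-1.32, adjusted p = 0.0197) passed as well. With all 6 arrays, Phlda3, Zmat3, Ccng1, Polk and Xpc passed in each of 11 settings, Plk2 and Pml in 10, Aen in 8 and Ei24 and Dcxr in 6.

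Further targets of p53, from a list of 40 genes that includes Cdkn1a and a few members of the Bcl2 family, were tested in the same fit. Of that family, Bbc3 (0.43 ± 0.29, adjusted p = 0.364) and Pmaip1 (-0.28 ± 0.21, adjusted p = 0.416) did not pass in limma. Both were named after their values had been seen, and the family as a whole was not tested here. Of 33 past the filter, 6 rose (18.2%) and 2 fell (6.06%), with a median of 0.32. Abhd4, a lipase gene, rose by 1.65 ± 0.19, the circadian repressor gene Bhlhe40 by 1.75 ± 0.21, the adhesion gene Ninj1 by 1.31 ± 0.21 and the lysosomal protease gene Ctsd by 1.08 ± 0.22. Cyfip2, an actin regulator gene, fell by 1.60 ± 0.29 and the spindle gene Ckap2 by 2.10 ± 0.41. The other genes that rose were Rprm (2.74 ± 0.73) and the cyclin-dependent kinase inhibitor gene Cdkn1a, at 10.23, 11.65 and 11.38 with PBS and 12.68, 12.65 and 12.88 with mD1R (1.65 ± 0.34, adjusted p = 0.0234). These last genes were named after their values had been seen. Rprm had a mean signal of 4.40 with PBS, below the filter at 5.27, and passed the filter only through the mD1R arrays, at 7.14, so its call and size are uncertain. With no filter its adjusted p in limma was 0.0650.

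In a further list of regulators upstream of p53, no gene past the filter rose past the threshold. Pml, which rose, is counted with the targets and is not in this list. Cdkn2a is in the list but lay below the filter, and its values are given at the end. Of 24 regulators past the filter, 0 were higher and 3 lower (12.5%) in limma, and 1 was higher and 4 lower at an unadjusted p of 0.05, with a median of -0.06. The ubiquitin ligase gene Rchy1, which acts on p53 alongside Mdm2, fell by 1.10 ± 0.18 (adjusted p = 0.0136). The checkpoint kinase gene Chek1 fell by 1.48 ± 0.28 (adjusted p = 0.0179) and the deacetylase gene Sirt1 by 0.79 ± 0.20 (adjusted p = 0.0381). Many regulators of p53 act by modifying proteins, which an expression array does not measure.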

How the data were processed

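KSL cells of 6 cultures were measured on Affymetrix 3 prime arrays. The authors deposited log2 signals for 45101 probe sets, 64 of them controls; MAS5 is the tool in the submitters' processing notes, without its version. From the values, each array had a 2% trimmed mean of 500 on the linear scale, and 239 to 422 values per array were listed as log2 0. Detection calls were not used here. MAS5 subtracts mismatch signal, so low values are noisy. The platform annotation gave 34945 probe sets other than controls 1 symbol and 932 several, and left 9160 unnamed. Probe sets with a mean log2 signal of at least 5.27, the 40th percentile, were kept (27022). For the two-sided comparison of the groups, limma 3.58.1 (R 4.3.3) took the deposited values without pseudocount or block; eBayes moderated the variances along a trend with signal. In simulated data with 200 changed probe sets, the fit found 1.7% of log2 changes of 1 and 39.8% of changes of 2. A gene that did not pass is therefore not shown to be unchanged. More probe sets passed in the real data (3413), so these shares need not hold for them. Errors marked SE are limma's, and the median SE was 0.31. The number of arrays limits the precision. All members may be named; arrays are given singly for those that passed, for a fixed core and for changes of at least 1, and in further lists of p53 genes those past the threshold are named, at most 6 by smallest p, with exceptions marked. The members, lists and spike-in sets were chosen with earlier results of these data known. Alternatives covered scaling, pseudocount, filter, variance model, array weights, blocks, the probe set used and leaving out each array.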

Additional observations from a re-analysis of the deposited data

How the results depend on the processing

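The 9 rises and 1 fall among the p53 targets, their median of 0.47 and the 3413 probe sets past the threshold were recomputed under each alternative. With each array left out in turn, the counts past the adjusted threshold were 0 to 5565 probe sets, 0 to 8 rising and 0 to 5 falling targets, with medians from 0.34 to 0.64. Without PBS replicate 3 the count was 0 in limma, with 5853 probe sets at an unadjusted p of 0.05. With no variance trend 2213 probe sets and 4 rising targets passed, and with array weights 6508 probe sets and 7 falling targets. The falling targets were 2 with a pseudocount of 16 or the filter at the 60th percentile, Btg2 joining Xpc in both. The replicate numbers were not shown to pair the arrays, since the correlation of deviations was 0.31, 0.028 and 0.13 for numbers 1, 2 and 3, and 3 of 6 arrays correlated best with their own number. With the replicate number as a block 4 targets fell, Btg2, Plk3 and Gadd45a joining Xpc, and of the rises Ei24 was lost (adjusted p = 0.0501) and Ak1 gained. With the spike-in set as a block Ei24, Aen and Dcxr were lost (adjusted p = 0.0549, 0.0658 and 0.0568) and Ak1 was gained (1.93, adjusted p = 0.0136). Sesn1 changed sign with array weights (0.12), and over the arrays left out it ranged from -0.17 to 0.093 (0.093 without PBS replicate 1) and Perp from -0.076 to 0.92, none of them past the threshold. Promoter matches were 3, 11 and 2 genes with at most 1 mismatch, at most 3 mismatches and no spacer, against 0.718%, 17.4% and 0.392% of all genes with a window. The cause of these moves was not tested. Signal over background is unknown without detection calls, which bears most on Eda2r and Tnfrsf10b.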

Other observations

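Some regulators and further targets of p53 lay below the signal filter and were outside the counts above. Cdkn2a, whose locus encodes the Mdm2 inhibitor Arf and the cyclin-dependent kinase inhibitor p16, gave 2.50, 1.06 and 0.75 in PBS replicates 1, 2 and 3 and 5.60, 5.28 and 4.01 in mD1R replicates 1, 2 and 3. The groups did not overlap, and with no filter the difference of 3.52 ± 0.83 had an adjusted p of 0.0411 in limma. All PBS signals of this gene are near the lower end of the scale, where MAS5 values are least reliable. Its mean of 4.96 with mD1R was below the filter as well, so its call and the size of the difference are uncertain. Among the others below the filter, groups overlapped for Trp63, the p53 relative of epithelia (0.89), the repressor gene Twist1 (0.53) and Sfn, the epithelial 14-3-3 sigma gene (-1.04).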
